A study of Mus musculus with 27 samples.

Results

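The Cyp2 family of cytochrome P450 genes was followed in 27 livers over a vehicle group and 8 doses of TCDD. TCDD is 2,3,7,8-tetrachlorodibenzo-p-dioxin, the prototype agonist of the aryl hydrocarbon receptor. Members were all genes of the count files whose GRCm38 symbol is Cyp2 followed by a subfamily letter or letters and a number, without pseudogenes and without Cyp2c70. This gave 48 genes in 14 subfamilies among 41388 gene identifiers, and all 48 are annotated as protein coding. Each liver came from an ovariectomized female C57BL/6 mouse, labelled 120 days old, so that every group including the controls lacked ovaries. The controls received the vehicle, sesame oil, by gavage. The other groups received TCDD by gavage at 30, 10, 3, 1, 0.3, 0.1, 0.03 or 0.01 µg/kg every 4 days for 92 days, although one label field also calls the dosing daily. Each of the 9 groups held 3 livers, which the design text calls biological replicates, and every p-value below measures only the spread between these samples.

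Cytochrome P450 enzymes of this family are heme proteins of the endoplasmic reticulum. They insert oxygen into drugs, solvents, steroids and fatty acids, using electrons that P450 oxidoreductase takes from NADPH. In the liver they are mainly hepatocyte products, many of them richest around the central vein, and rodents carry large gene clusters whose members often differ between males and females under the control of growth hormone. The constitutive androstane receptor and the pregnane X receptor are known regulators of several Cyp2b and Cyp2c genes, whereas the textbook targets of the dioxin receptor lie in the Cyp1 family.

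The libraries held 11050391 to 30873586 counts on genes, with a median of 19999504 over all 27, except the second 0.3 µg/kg library, which held 434011. The first 1 µg/kg liver stood apart from the other 2 of its group, with a summed Cyp2 level of 12412 CPM (counts per 1e6 gene counts, scaled with TMM factors) against 25175 and 18807 CPM, and a summed neutrophil marker level of 1110 CPM against 5.25 and 186 CPM. At 30 µg/kg the second liver had the highest summed hepatocyte marker level, 104680 CPM against 68721 and 66340 CPM in the other 2. The sequencing indices of the vehicle to 0.1 µg/kg libraries came from one set and those of the 0.3 to 10 µg/kg libraries from another, while the 30 µg/kg libraries reused the 3 vehicle indices, so that dose and index set cannot be told apart between vehicle and 0.3 to 10 µg/kg.

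The family split under TCDD. A few genes, led by Cyp2a5 and Cyp2d9, rose with dose. Many others, among them genes of the Cyp2b, Cyp2c, Cyp2d and Cyp2j subfamilies, were lower at 30 µg/kg, and fewer of these were lower at 10 µg/kg. Of the 48 members, 34 in 11 subfamilies passed the filter on low counts and were tested. A member was called where the edgeR quasi-likelihood test gave a Benjamini-Hochberg adjusted p under 0.05 over all 15121 genes tested. At 0.01 and 0.03 µg/kg edgeR and DESeq2 called 0 members in the models of all 27 libraries, with 4 and 1 of them at an unadjusted p under 0.05, and the background share of all tested genes called was 0% and 0.0397%. Without the first 0.01 µg/kg library Cyp2u1 was called at that dose (adjusted p = 0.0317), and in an edgeR fit of the 2 groups alone Cyp2a5 was called at 0.03 µg/kg (0.0221). At 0.1 µg/kg 1 member was called against a background of 0.192%, and at 0.3 µg/kg 2 were called against 1.18%, all of them higher.

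In the 1 µg/kg group 5 members were called, 2 higher and 3 lower, where 19.4% of all genes were called (11.1% higher and 8.21% lower). That split moved with the scaling, to 4 higher and 2 lower with RLE factors. The count of 5 was 2 without the second vehicle library and 3 without the third vehicle or the third 1 µg/kg library. At 3 µg/kg 4 members were called, all higher, against a background of 10.1% in both directions and 5.17% higher. In the 10 µg/kg group 15 of 34 members were called, 6 higher and 9 lower, against 22.5% of all genes (11.3% higher and 11.2% lower), and 9 were called without the third vehicle library or without the second 10 µg/kg library. In the 30 µg/kg group 24 of 34 members, 70.6%, were called, 4 higher and 20 lower, against 37.4% of all genes (18% higher and 19.4% lower). The median log2 fold change of the tested members at 30 µg/kg was -0.89, beside -0.01 over all genes tested, and at 10 µg/kg it was -0.23 beside -0.03. With RLE factors in place of TMM the median of all genes at 30 µg/kg was 0.10, and the share of all called genes that were higher was 59.3% instead of 48.1% (61.6% instead of 50.4% at 10 µg/kg). The 3 livers at 30 µg/kg lay wholly above or wholly below the vehicle livers for 26 members, and those at 10 µg/kg did so for 22. These counts stand without a background, since the share of all tested genes without overlap was not counted.

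**Figure D1:**
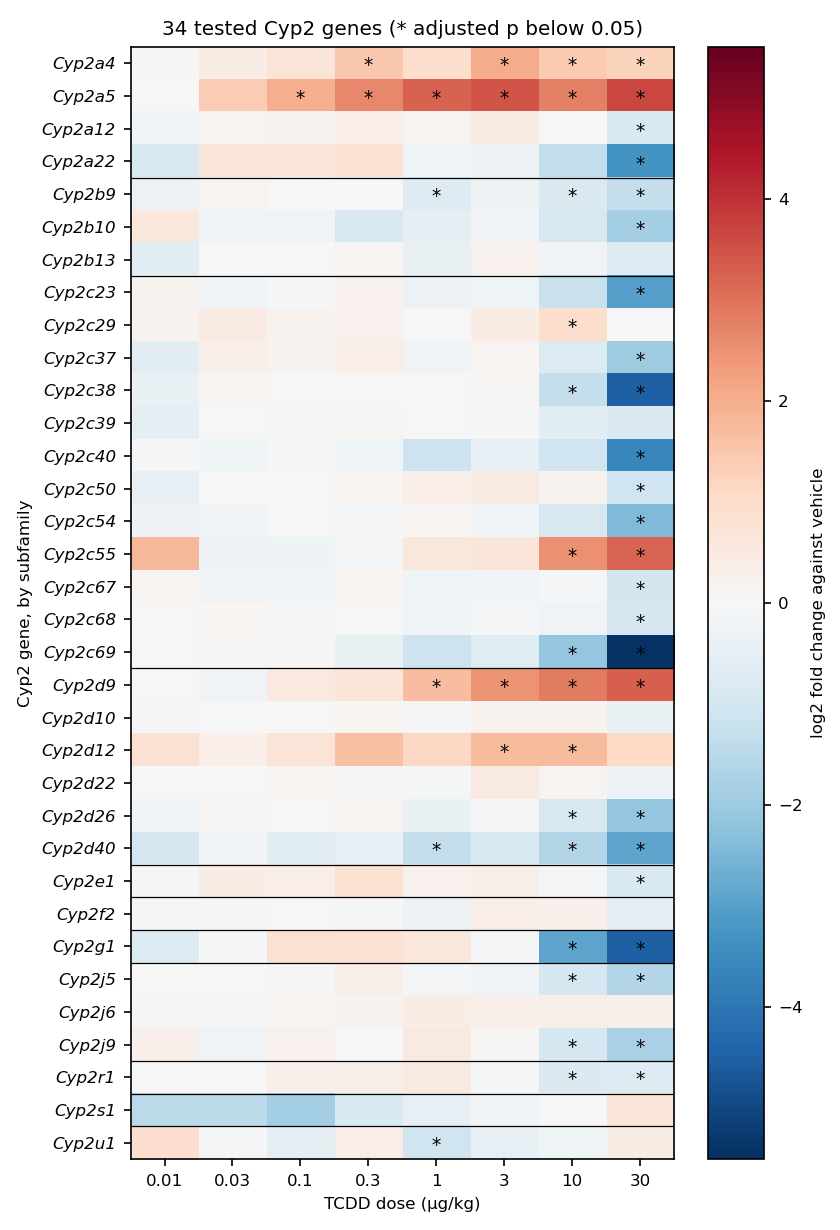
Heat map of the log2 fold change against vehicle (colour) for the 34 tested Cyp2 genes (rows, by subfamily) at each TCDD dose (columns, in µg/kg), with called differences marked. The marks gather at the right, 15 at 10 µg/kg and 24 at 30 µg/kg, and Cyp2a5 is the row with a mark already at 0.1 µg/kg.

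In vehicle livers the levels of the members spanned several orders of magnitude when set per kilobase of transcript. Cyp2e1, which oxidises ethanol, acetaminophen and small solvents, stood first at 3429 ± 369 CPM per kb (SD, n = 3 here and in every mean below). Cyp2d26 followed at 572 ± 46.8 CPM per kb and Cyp2c29, an enzyme that turns arachidonic acid into epoxides, at 413 ± 29.3 CPM per kb. The livers of each of these 3 genes did not overlap with those of the next gene in the order. Cyp2c37 (376 ± 12.9 CPM per kb), Cyp2f2 (374 ± 28.0), Cyp2b9 (338 ± 21.3) and Cyp2c69 (289 ± 68.0) came next, and the livers of each of them overlapped with those of its neighbour. Near the lower end of the order were Cyp2r1 at 4.43 CPM per kb, Cyp2g1 at 1.88, Cyp2u1 at 0.546 and Cyp2s1 at 0.133. The 48 members together took 1.63% of all gene counts in vehicle livers, 2.26% at 3 µg/kg and 1.43% at 30 µg/kg.

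As summed levels, the subfamilies moved apart. The whole family summed to 17342 ± 828 CPM in vehicle, 25028 ± 4323 CPM at 0.3 µg/kg (a group that includes the shallow library), 17442 CPM in the 10 µg/kg group and 11410 ± 3072 CPM in the 30 µg/kg group, where the livers were at 9920.5, 14943 and 9368 CPM. The Cyp2a sum went from 824 ± 40.2 CPM in vehicle to 2990 CPM at 3 µg/kg, with 1952 ± 171 CPM in the 10 µg/kg group and 2515 ± 614 CPM at the highest dose, and its share of the family from 4.76% to 23.6%. The Cyp2c sum went from 4775 ± 185 to 2239 ± 1468 CPM at 30 µg/kg. Its second liver at that dose, at 3933 CPM, was far above the other 2, at 1327 and 1458 CPM. The Cyp2b sum was 1042 ± 70.7 CPM in vehicle and 487 ± 35.1 CPM at 30 µg/kg, and the Cyp2j sum 645 and 256 CPM. These sums are given without a test.

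**Figure D2:**
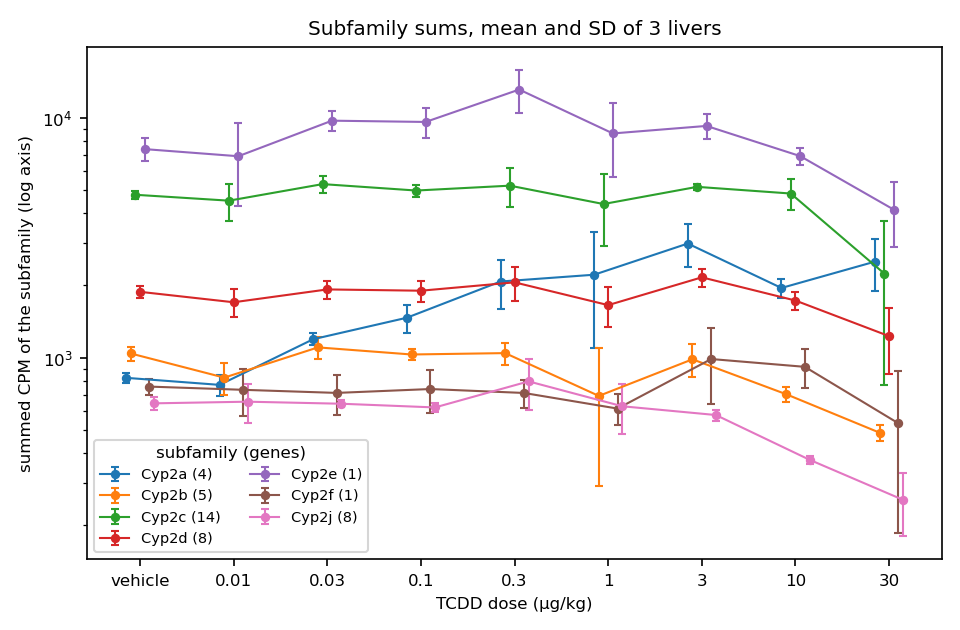
Summed scaled counts (CPM, log axis) of 7 Cyp2 subfamilies (2a, 2b, 2c, 2d, 2e, 2f and 2j) in vehicle and at each TCDD dose in µg/kg, as mean ± SD of 3 livers. The Cyp2a line starts at 824 CPM, is highest at 3 µg/kg with 2990 CPM, is at 1952 CPM at 10 µg/kg and ends at 2515 CPM, while the Cyp2b and Cyp2c lines end at 487 and 2239 CPM.

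Cyp2a5 and Cyp2a4 are the pair of Cyp2a genes that rose. Cyp2a5 hydroxylates coumarin and also oxidises nicotine and bilirubin, and Cyp2a4 is a testosterone hydroxylase with higher expression in female than in male liver. They are close copies: 37.0% of the 50-base windows of Cyp2a5 transcripts and 38% of those of Cyp2a4 occur in transcripts of another gene, so that the values of either gene alone are uncertain. Their promoters, in RefSeq's windows on build GRCm38.p6, are also nearly alike, with 245 of 249 aligned bases (98.4%) the same over the 250 bases before the start. They are shown here because the pair rose together, at different doses. Cyp2a5 is at chr7:26835089-26835338 and Cyp2a4 at chr7:26306942-26307191, both on the plus strand, and capitals mark the 4 bases that differ.
Cyp2a5: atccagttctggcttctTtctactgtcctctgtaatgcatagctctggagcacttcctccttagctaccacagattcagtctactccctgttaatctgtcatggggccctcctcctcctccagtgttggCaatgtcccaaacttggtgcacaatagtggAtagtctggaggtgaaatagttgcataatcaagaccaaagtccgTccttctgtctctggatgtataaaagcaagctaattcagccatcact
Cyp2a4: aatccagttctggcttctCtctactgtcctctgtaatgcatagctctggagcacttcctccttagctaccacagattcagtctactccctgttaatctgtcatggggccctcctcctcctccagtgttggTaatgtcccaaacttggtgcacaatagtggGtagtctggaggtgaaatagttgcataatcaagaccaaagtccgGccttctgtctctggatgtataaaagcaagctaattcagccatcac

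Cyp2a5 was the member called at the lowest dose. Its vehicle livers were at 169.5, 115 and 131 CPM and its 0.01 µg/kg livers at 167, 169 and 91.4 CPM. At 0.03 µg/kg the livers were at 356, 426 and 302 CPM, all above every vehicle liver, but the 2.60-fold difference was not called in the model of all 27 libraries (adjusted p = 0.551 by edgeR), whereas a fit of the 2 groups alone gave 0.0221. At 0.1 µg/kg they were at 549, 527 and 592 CPM. All 3 lay above the vehicle livers and close to one another, and the difference was called (log2 fold change 2.00, SE 0.36, 4.01-fold, adjusted p = 0.00582). That call was lost without the second vehicle library (adjusted p = 0.0949) or the third (0.0746). Against vehicle the level was raised 6.16-fold in the 0.3 µg/kg livers (adjusted p = 0.000181), 9.36-fold at 1 µg/kg (1.93e-06), 11-fold at 3 µg/kg (6.28e-07) and 6.79-fold at 10 µg/kg (4.73e-06). The 30 µg/kg livers were at 2448, 1172 and 1721 CPM, 12.8-fold above vehicle (log2 fold change 3.68, SE 0.38, adjusted p = 6.58e-08). No liver overlapped with vehicle at this dose.

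Cyp2a4 was called higher at 0.3, 3, 10 and 30 µg/kg. Its vehicle livers were tightly grouped at 207, 212 and 198 CPM, and its 0.3 µg/kg livers were at 460.4, 503 and 772 CPM. The groups did not overlap, but the call at 0.3 µg/kg (2.82-fold, adjusted p = 0.0398) was lost without the first, second or the third vehicle library (0.151, 0.121 and 0.177) and without the second or the third 0.3 µg/kg library (0.0655 and 0.289). It was also lost without the filter on low counts (0.121). At 1 µg/kg the livers were at 163, 634 and 414 CPM, with the first one below vehicle, and the difference was not called (adjusted p = 0.058). It was called without that liver (0.00542), with RLE factors (0.0455), with upper-quartile factors (0.0487) and by DESeq2 (0.0193). At 3 µg/kg the livers were at 857, 635 and 1084 CPM, 4.17-fold above vehicle (adjusted p = 0.000421), and at 10 µg/kg they were at 600.0, 619 and 476 CPM (2.75-fold, 0.00506). The livers at the highest dose were at 547, 456 and 485 CPM, all above vehicle, for a log2 fold change of 1.27 (SE 0.36, 2.41-fold, adjusted p = 0.00746).

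The other tested Cyp2a genes, Cyp2a12 and Cyp2a22, were lower at 30 µg/kg. They lie in the same cluster on chromosome 7 and share 20.1% and 20.2% of their 50-base windows with other genes. Cyp2a12 was at 424, 419.8 and 421 CPM in vehicle and at 191, 359 and 147 CPM at 30 µg/kg. All 3 treated livers were below vehicle (1.81-fold lower, adjusted p = 0.00737), but the call was lost without the first 30 µg/kg library (0.0588) or the third (0.0737) and in a fit of the 2 groups alone (0.0541). Cyp2a22 was at 67.6, 40.5 and 67.3 CPM in vehicle and at 6.00, 7.68 and 4.04 CPM at 30 µg/kg. Its groups were far apart (log2 fold change -3.30, SE 0.73, 9.83-fold lower, adjusted p = 0.00148), and the first 1 µg/kg liver was already at 3.27 CPM where the other 2 were at 80.4 and 66.1 CPM.

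**Figure D3:**
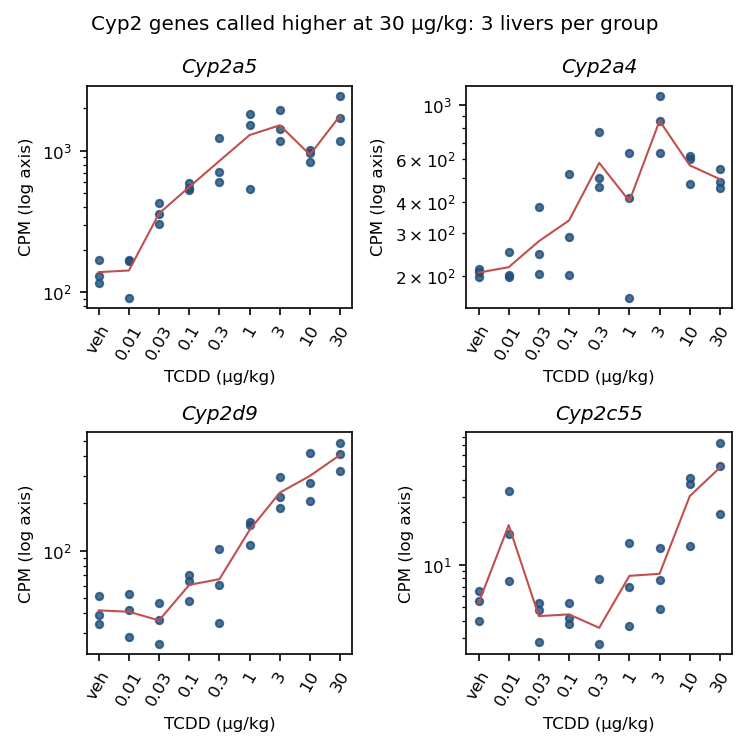
Scaled counts (CPM, log axis) of the 4 members called higher at 30 µg/kg, Cyp2a5, Cyp2a4, Cyp2d9 and Cyp2c55, against TCDD dose in µg/kg, with each liver as a point and the group mean as a red line. The Cyp2a5 mean is 139 CPM in vehicle and 1780.4 CPM at 30 µg/kg, with a dip at 10 µg/kg, and the value of 0 CPM of Cyp2c55 in the second 0.3 µg/kg liver cannot be drawn on the log axis.

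In the Cyp2b subfamily, Cyp2b10 is the classical phenobarbital-inducible target of the constitutive androstane receptor, and Cyp2b9 and Cyp2b13 are female-biased genes. Cyp2b9 was at 654, 589 and 662 CPM in vehicle and at 216, 273 and 286 CPM at 30 µg/kg. The groups did not overlap, and the log2 fold change was -1.30 (SE 0.23, 2.46-fold lower, adjusted p = 8.56e-05). At 10 µg/kg Cyp2b9 was 1.73-fold lower (adjusted p = 0.0135, but 0.0555 without the third vehicle library and 0.0585 without the second 10 µg/kg library). At 1 µg/kg it was 1.63-fold lower (0.03), a call that was lost without any of the 3 vehicle libraries (0.0827, 0.0508 and 0.0871) or without the first or the third 1 µg/kg library (0.204 and 0.11) and in a fit of the 2 groups alone (0.202). Cyp2b13, which shares 27.3% of its windows with other genes, was at 310.1, 339 and 373 CPM in vehicle and at 220.2, 201 and 209.8 CPM at 30 µg/kg. Its livers did not overlap either, but the difference was not called (log2 fold change -0.69, SE 0.34, adjusted p = 0.116, and 0.01 in a fit of the 2 groups alone). Cyp2b10 was lower at 30 µg/kg (66.0 CPM in vehicle against 17.9 CPM, 3.69-fold, adjusted p = 0.00552).

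The Cyp2c subfamily was the largest tested, with 12 genes, many of which oxidise arachidonic acid. Of these, 1 was called higher and 9 lower at 30 µg/kg, where 18% of all genes were called higher and 19.4% lower. Several of the 9 are close copies, so that they are not 9 separate observations. The largest fall among the called members was that of Cyp2c69, at 486, 613 and 381 CPM in vehicle and 4.24, 24.2 and 5.32 CPM at 30 µg/kg. Every treated liver was far below every vehicle liver, with the second one the highest (log2 fold change -5.44, SE 0.80, 43.5-fold lower, adjusted p = 2.47e-05). In the 10 µg/kg livers Cyp2c69 was at 197, 65.3 and 78.5 CPM (4.34-fold lower, adjusted p = 0.0308). That call was lost without any 1 of the vehicle libraries (0.0602, 0.0904 and 0.0505) without the second or the third 10 µg/kg library (0.127 and 0.129) and without the low-count filter (0.0591). Its neighbour Cyp2c40, which hydroxylates arachidonic acid, was at 167, 294 and 201 CPM in vehicle and at 6.38, 40.2 and 8.24 CPM at 30 µg/kg. It was 12-fold lower with no overlap (log2 fold change -3.59, SE 0.59, adjusted p = 8.23e-05), and at 10 µg/kg it was not called (0.165, and 0.0231 in a fit of the 2 groups alone).

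Cyp2c69, Cyp2c40, Cyp2c67 and Cyp2c68 lie together on chromosome 19 and are close copies: 54.3%, 60.3%, 52.8% and 43.3% of their 50-base windows occur in other genes. Their single values are therefore uncertain. Cyp2c67 and Cyp2c68 also fell at 30 µg/kg, by 1.02 on the log2 scale (adjusted p = 0.00509, and 0.0543 without the first 30 µg/kg library) and by 0.92 (adjusted p = 0.00123). The 250 bases before the start of each gene are shown because these copies were all called lower, with log2 fold changes from -5.44 in Cyp2c69 to -0.92 in Cyp2c68. With Cyp2c69, Cyp2c40 shares 217 of 220 aligned bases (98.6%), Cyp2c67 186 of 200 (93%) and Cyp2c68 232 of 246 (94.3%). The alignment of Cyp2c68 also has 2 gap bases, which are not among the 246. All are from RefSeq on the minus strand of GRCm38.p6, at chr19:39886770-39887019 for Cyp2c69, chr19:39812815-39813064 for Cyp2c40, chr19:39649043-39649292 for Cyp2c67 and chr19:39741102-39741351 for Cyp2c68. Capitals mark bases unlike those of Cyp2c69 or set against a gap in it, and Cyp2c69 is itself in lower case.
Cyp2c69: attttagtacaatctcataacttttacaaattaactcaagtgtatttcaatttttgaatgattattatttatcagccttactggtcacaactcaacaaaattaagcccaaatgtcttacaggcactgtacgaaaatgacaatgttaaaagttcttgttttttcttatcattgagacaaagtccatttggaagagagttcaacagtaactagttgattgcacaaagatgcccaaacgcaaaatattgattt
Cyp2c40: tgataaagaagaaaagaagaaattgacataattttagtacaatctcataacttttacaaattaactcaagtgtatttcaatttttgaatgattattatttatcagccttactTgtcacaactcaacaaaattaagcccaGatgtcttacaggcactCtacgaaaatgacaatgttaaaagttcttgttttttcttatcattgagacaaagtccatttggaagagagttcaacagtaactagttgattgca
Cyp2c67: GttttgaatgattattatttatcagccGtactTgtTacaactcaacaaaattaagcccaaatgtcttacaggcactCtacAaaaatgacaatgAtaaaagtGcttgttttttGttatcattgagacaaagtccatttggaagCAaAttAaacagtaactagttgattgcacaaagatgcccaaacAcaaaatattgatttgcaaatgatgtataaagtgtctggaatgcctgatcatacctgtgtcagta
Cyp2c68: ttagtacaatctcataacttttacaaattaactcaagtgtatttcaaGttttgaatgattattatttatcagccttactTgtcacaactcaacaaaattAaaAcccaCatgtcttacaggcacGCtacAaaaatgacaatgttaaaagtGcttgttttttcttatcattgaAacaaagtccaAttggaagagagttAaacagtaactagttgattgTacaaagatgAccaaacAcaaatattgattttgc

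Among the arachidonic acid epoxygenases, Cyp2c38 was at 188, 138 and 154 CPM in vehicle and at 1.93, 13.2 and 5.96 CPM at 30 µg/kg. The groups were far apart (log2 fold change -4.50, SE 0.51, 22.6-fold lower, adjusted p = 6.78e-07). The 10 µg/kg livers were at 91.2, 69.5 and 30.9 CPM, 2.5-fold lower (adjusted p = 0.0346). That call was lost without any 1 of the vehicle libraries (0.11, 0.0592 and 0.0784) without the second or the third 10 µg/kg library (0.083 and 0.177), without the low-count filter (0.0838) and in a fit of the 2 groups alone (0.0525). Cyp2c23, which shares no 50-base window with another gene, was at 421, 311 and 349 CPM in vehicle. The 30 µg/kg livers were at 17.3, 96.7 and 16.8 CPM, with the second liver again the highest, 8.25-fold below vehicle (log2 fold change -3.04, SE 0.48, adjusted p = 3.68e-05). Cyp2c23 at 10 µg/kg was 2.35-fold lower, which was not called (0.0521, and 0.00631 in a fit of the 2 groups alone).

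Cyp2c37, Cyp2c50 and Cyp2c54 form a second group of neighbours. Cyp2c37 was at 698, 659.6 and 702 CPM in vehicle and at 156, 213 and 163 CPM at 30 µg/kg. Its livers were tight in both groups and did not overlap (log2 fold change -1.96, SE 0.35, 3.88-fold lower, adjusted p = 0.000102). Cyp2c54 was at 238, 338 and 313 CPM in vehicle and at 5.33, 149 and 11.6 CPM at 30 µg/kg. The second treated liver was more than an order of magnitude above the other 2, and the call (5.34-fold lower, adjusted p = 0.0145) was lost without the third 30 µg/kg library (0.0596) and in a fit of the 2 groups alone (0.175). Cyp2c50 was 2.15-fold lower (0.00947, but 0.0799 and 0.073 without the first or the third 30 µg/kg library and 0.113 in a fit of the 2 groups alone). Cyp2c39, a retinoic acid hydroxylase, was not called (log2 fold change -0.79, adjusted p = 0.072), but it was on leaving out the third 30 µg/kg library (0.00844).

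Cyp2c29 and Cyp2c55 were the Cyp2c genes called higher at 10 µg/kg. Cyp2c29 was at 1233, 1193 and 1365 CPM in vehicle and at 1781, 3289 and 2300.4 CPM at 10 µg/kg. All 3 livers at 10 µg/kg were above vehicle (1.94-fold, adjusted p = 0.032), but the call was lost without any 1 of the vehicle libraries (0.0739, 0.0919 and 0.067), without the second 10 µg/kg library (0.171) and without the low-count filter (0.0538). In the 30 µg/kg livers Cyp2c29 was at 642, 2303 and 804 CPM, so that 1 liver lay above and 2 below every vehicle liver. The difference was not called (log2 fold change -0.02, SE 0.32, adjusted p = 0.977), and without the second 30 µg/kg library Cyp2c29 was called lower (log2 fold change -0.81, 0.0114).

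Cyp2c55, which hydroxylates arachidonic acid and is best known from the colon, was low in vehicle, at 6.53, 3.97 and 5.5 CPM. At 0.01 µg/kg it was at 7.69, 33.1 and 16.4 CPM, all above vehicle but not called (3.55-fold, adjusted p = 0.743). The 10 µg/kg livers were at 13.5, 41.1 and 37.1 CPM (5.69-fold higher, adjusted p = 0.00497). By 30 µg/kg the livers were at 73.3, 50.2 and 22.7 CPM, all above vehicle, with a log2 fold change of 3.18 (SE 0.61, 9.09-fold, adjusted p = 0.000406).

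**Figure D4:**
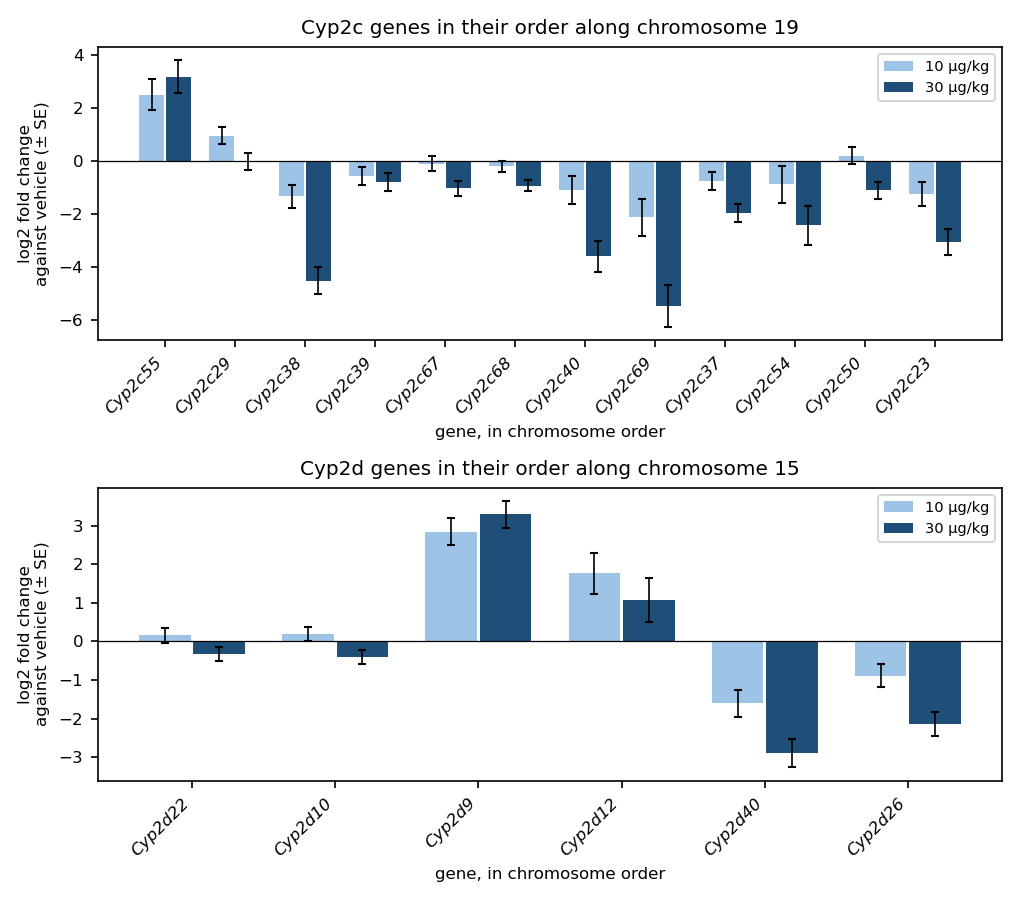
Log2 fold change at 10 and 30 µg/kg (bars, with SE) for the tested Cyp2c genes on chromosome 19 and the tested Cyp2d genes on chromosome 15, in the order of their position. Each panel holds genes that rose and genes that fell. At 30 µg/kg Cyp2c55 was at 3.18 and Cyp2c69, which is not its direct neighbour, at -5.44.

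In the Cyp2d subfamily, Cyp2d9 rose and Cyp2d26 and Cyp2d40 fell. Cyp2d9 is a testosterone hydroxylase that is normally much higher in male than in female mouse liver. It was at 51.9, 39.3 and 34.1 CPM in vehicle and stayed between 25.4 and 70.1 CPM in all livers up to 0.1 µg/kg. At 1 µg/kg the livers were at 152, 147 and 108 CPM, all above vehicle and the lowest dose at which the gene was called (3.25-fold, adjusted p = 0.00102). At 3 µg/kg they were at 219, 297 and 187 CPM (5.61-fold, adjusted p = 1.76e-05), and at 10 µg/kg at 269, 208 and 422 CPM (7.18-fold, adjusted p = 1.77e-06). The 30 µg/kg livers reached 412, 488 and 322 CPM, 9.76-fold above vehicle (log2 fold change 3.29, SE 0.35, adjusted p = 1.51e-07). No liver from 1 µg/kg up overlapped with vehicle. Of its 50-base windows 21.8% occur in other genes, and 9.26% of its exon bases overlap with another gene on the same strand.

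Cyp2d26, the most abundant Cyp2d gene per kilobase, was at 1092, 931 and 1051 CPM in vehicle and at 124, 396 and 177 CPM at 30 µg/kg. The groups did not overlap (log2 fold change -2.14, SE 0.30, 4.41-fold lower, adjusted p = 4.97e-06). The 10 µg/kg livers were at 671, 642 and 348 CPM, 1.85-fold lower (0.03). That call was lost without any 1 of the vehicle libraries (0.0926, 0.0566 and 0.0895), without the second or the third 10 µg/kg library (0.0503 and 0.205), with upper-quartile factors (0.056) and without the low-count filter (0.0547). Cyp2d40 was at 43.8, 77.4 and 54.4 CPM in vehicle, and at 25.3, 25.3 and 19.8 CPM at 1 µg/kg, where it was called 2.49-fold lower (0.00978, but 0.0607 without the second vehicle library). By 30 µg/kg it was at 3.95, 12.9 and 6.65 CPM, below every vehicle liver (log2 fold change -2.90, SE 0.37, 7.44-fold lower, adjusted p = 2.55e-06).

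Cyp2d10 and Cyp2d22, the latter often set beside human CYP2D6, were not called at 30 µg/kg. Their log2 fold changes were -0.41 (adjusted p = 0.0816) and -0.32 (0.172). Without the second 30 µg/kg library both were called lower (0.00586 and 0.0187). Cyp2d12 averaged under 1 CPM in every group and was called higher at 3 µg/kg (3.35-fold, adjusted p = 0.0468) and 10 µg/kg (3.39-fold, 0.0197). The call at 3 µg/kg was lost without any 1 of the vehicle libraries (0.0661, 0.111 and 0.202), without the second or the third 3 µg/kg library (0.108 and 0.234) without the low-count filter (0.0666) and in DESeq2 (0.0825). At 10 µg/kg it was lost without the second or the third vehicle library (0.0521 and 0.101) and without the first or second 10 µg/kg library (0.0943 and 0.075).

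Cyp2e1 took 42.6% of the family's scaled counts in vehicle livers. It was at 6671, 7281 and 8249 CPM in vehicle and at 10063, 15010.0 and 14244 CPM at 0.3 µg/kg. All 3 livers at 0.3 µg/kg, the shallow library among them, were above vehicle, but the 1.77-fold difference was not called by edgeR (adjusted p = 0.16), while DESeq2 gave 0.026. By 30 µg/kg Cyp2e1 was at 3320.3, 5566 and 3537 CPM, below every vehicle liver (log2 fold change -0.84, SE 0.26, 1.79-fold lower, adjusted p = 0.0129). That call was lost without the third vehicle library (0.0535) and without the first or the third 30 µg/kg library (0.0889 and 0.0706). In bulk liver, fewer cells of a type and less RNA per cell cannot be told apart, and this holds for every lower value given here.

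Cyp2f2, which activates naphthalene in airway cells and is periportal in the liver, was at 801, 779 and 693 CPM in vehicle and at 347, 932 and 318 CPM at 30 µg/kg. The second treated liver was above all vehicle livers and the other 2 below them. The difference was not called (log2 fold change -0.51, SE 0.30, adjusted p = 0.194), and without that second library it was (0.000687). Cyp2g1, best known as a P450 of the olfactory mucosa, was low throughout, at 6.30, 3.61 and 2.17 CPM in vehicle. It was at 0.501, 0.464 and 0.633 CPM at 10 µg/kg (7.51-fold lower, adjusted p = 5.1e-06) and at 0.168, 0.230 and 0.106 CPM at 30 µg/kg (log2 fold change -4.49, SE 0.47, 22.5-fold lower, adjusted p = 5.05e-08). The 30 µg/kg values rest on 4, 6 and 2 counts, against 169, 69 and 54 in vehicle, and at both doses every liver lay below every vehicle liver.

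Cyp2r1, the vitamin D 25-hydroxylase, was at 10.1, 9.36 and 8.67 CPM in vehicle and at 4.41, 5.75 and 5.99 CPM at 10 µg/kg (1.75-fold lower, adjusted p = 0.00701). By 30 µg/kg it was at 4.79, 6.64 and 5.58 CPM, again below every vehicle liver (1.65-fold lower, 0.00844, but 0.0701 without the first 30 µg/kg library). Cyp2s1, mainly a P450 of epithelia outside the liver, was at 1.46, 0.314 and 0.201 CPM in vehicle and 1.05, 0.768 and 1.54 CPM at 30 µg/kg. Its groups overlapped and it was not called (log2 fold change 0.71, SE 0.62, adjusted p = 0.387), but without the first vehicle library it was (0.0247). Cyp2u1, a fatty acid hydroxylase, was at 2.46, 3.56 and 2.57 CPM in vehicle and at 1.67, 1.36 and 0.979 CPM at 1 µg/kg. The groups did not overlap, and the call of a 2.13-fold lower level (0.0397) was lost on leaving out any single library of the 6 (0.0557 to 0.15), in a fit of the 2 groups alone (0.0531), with RLE factors (0.0533) and by DESeq2 (0.0581). Cyp2u1 was not called at 30 µg/kg (0.35).

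The Cyp2j genes encode epoxygenases of arachidonic acid. Cyp2j5, the most abundant of them per kilobase in vehicle livers, was at 539, 619.6 and 591 CPM in vehicle and at 319, 301 and 303 CPM at 10 µg/kg. The groups did not overlap (1.90-fold lower, adjusted p = 0.00271). By 30 µg/kg Cyp2j5 was at 139, 275 and 159.7 CPM, below every liver at 10 µg/kg and in vehicle (log2 fold change -1.61, SE 0.22, 3.05-fold lower, adjusted p = 2.61e-06 against vehicle). Cyp2j9, with no 50-base window shared with another gene, was 3.42-fold lower at 30 µg/kg (adjusted p = 1.49e-06) and called lower at 10 µg/kg too (log2 fold change -0.98, 0.00211). Cyp2j6 was at 49.6, 50.7 and 49.5 CPM in vehicle and at 57.5, 61.0 and 63.9 CPM at 30 µg/kg. Its groups did not overlap, but the small difference was not called with TMM factors (log2 fold change 0.28, SE 0.15, adjusted p = 0.136), whereas it was with RLE factors (0.0349), upper-quartile factors (0.0398) and DESeq2 (0.03).

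**Figure D5:**
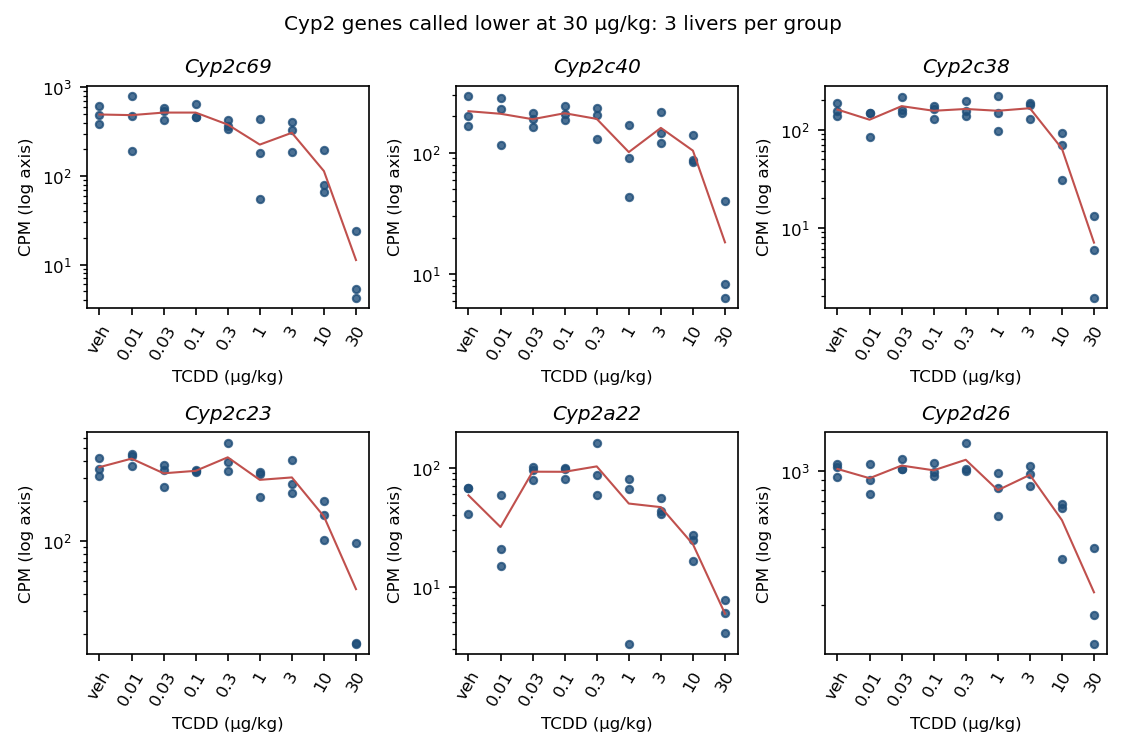
Scaled counts (CPM, log axis) of members called lower at 30 µg/kg against TCDD dose in µg/kg, with each liver as a point and the group mean as a red line. Cyp2c69 ends at a mean of 11.3 CPM from 493 CPM in vehicle, and in several panels the second 30 µg/kg liver is the highest of its group.

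The members were also set by their usual sex bias in mouse liver. At 30 µg/kg, 18% of all genes were called higher and 19.4% lower. Of the 5 female-biased genes listed, Cyp2b9, Cyp2c69 and Cyp2c40 were called lower at this dose and Cyp2a4 higher. All 30 µg/kg livers lay below vehicle for Cyp2b13, which was not called. Cyp2c69 and Cyp2c40 are close copies, so that their falls are not separate observations. Of the 2 male-biased genes listed, Cyp2d9 was higher and Cyp2u1 was not called. All these animals were female and without ovaries, and no male livers were analysed here.

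Between the highest doses, 9 members were lower at 30 than at 10 µg/kg and none was called higher, where 3.2% of all genes were called and 1.83% were called lower. The 9 were Cyp2a12 (adjusted p = 0.0499), Cyp2c23 (0.0338), Cyp2c37 (0.0485), Cyp2c38 (0.00158), Cyp2c40 (0.0207), Cyp2c50 (0.0288), Cyp2c69 (0.0174), Cyp2d26 (0.0206) and Cyp2d40 (0.0491), by edgeR. The count of 9 rests on single libraries: it was 1 without the first 10, the first 30 or the third 30 µg/kg library, 3 without the second 10 µg/kg library, 20 without the second 30 µg/kg library and 0 in a fit of the 2 groups alone, while DESeq2 called 14. Cyp2c38 was called in every fit with 1 library left out. The median log2 difference of the tested members was -0.76, beside 0.01 over all genes tested.

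Taking the dose from which a member was called at every higher dose too, Cyp2a5 was called from 0.1 µg/kg, Cyp2d9 from 1 µg/kg, Cyp2a4 from 3 µg/kg (with a further call at 0.3 but not at 1 µg/kg) and Cyp2c55 from 10 µg/kg. Of the members lower at 30 µg/kg, 9 were also lower at 10 µg/kg and 11 were called at 30 µg/kg only. Of all genes, 11.2% were called lower at 10 µg/kg and 19.4% at 30 µg/kg. This split moved with the fit: Cyp2c40, Cyp2c23 and Cyp2a22 were called at 10 µg/kg in edgeR fits of the 2 groups alone (adjusted p = 0.0231, 0.00631 and 0.00609). The same edgeR fit also called Cyp2c37 (0.0102), Cyp2c54 (0.00343) and Cyp2c39 (0.0284) at 10 µg/kg. The calls of Cyp2b9, Cyp2c38, Cyp2c69 and Cyp2d26 at 10 µg/kg were lost without certain single libraries. In a trend over the rank of the dose from 0 to 8, 20 members were called, 7 higher and 13 lower, where 46.6% of all genes were called (23.3% higher and 23.3% lower). Those higher were Cyp2a4, Cyp2a5, Cyp2c55, Cyp2d9, Cyp2d12, Cyp2j6 and Cyp2s1. The trend call of Cyp2s1 (adjusted p = 0.0484) was lost on leaving out most single libraries (0.0506 to 0.132 where lost), without the low-count filter (0.0589) and by DESeq2 (0.066). The count of 20 fell to 1 over vehicle to 0.1 µg/kg alone and to 6 over 0.3 to 10 µg/kg alone, the ranges that hold 1 set of indices each. Both ranges also leave out the 30 µg/kg livers and hold fewer doses and libraries, and what lowered the count was not tested. With RLE factors the share of all called genes with a rising trend was 61.6% instead of 50%.

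The other 14 members were too low to test. Cyp2c66, Cyp2j7, Cyp2j12, Cyp2j13 and Cyp2t4 had 0 counts in all 27 libraries, Cyp2w1 had 1 count and Cyp2ab1 had 41 counts in total. The highest total of an untested member was 139 counts, in Cyp2d11. Cyp2c65 had 0 counts over the 3 vehicle libraries and 13 over the 3 libraries at 30 µg/kg.

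The GCGTG core of the dioxin response element was looked for on both strands of RefSeq's promoter windows, from 250 bases before to 50 after the start. A window was at hand for 40 of the 48 members. The core was in 8 of these, or 20%, beside 35.2% of all genes with a window. None of the 4 members called higher at 30 µg/kg had it in this window, and of the 17 members called lower with a window, Cyp2j9, Cyp2b10, Cyp2r1 and Cyp2c68 did. A match is only a run of letters, and no match says only that these letters are not in this window.

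Genes that serve the P450 enzymes were counted against the same background at 30 µg/kg, where 18% of all genes were called higher and 19.4% lower (at 10 µg/kg, 11.3% and 11.2%). Of 5 electron donors, 2 were called lower and none higher at 30 µg/kg, namely Cyb5r3 (2.28-fold, adjusted p = 2.02e-05) and Cyb5b (1.54-fold, 0.00495). Por, the P450 oxidoreductase, was 1.78-fold higher at 10 µg/kg (0.0153) and not called at 30 µg/kg (1.46-fold, 0.0796). Of 9 nuclear receptors and partners that act on P450 genes, 5 were called lower at 30 µg/kg and none at 10 µg/kg. Among them were Nr1i3, the constitutive androstane receptor (1.96-fold lower, 0.00625), Nr1i2, the pregnane X receptor (1.58-fold lower, 0.00272), and Ppara (2.27-fold lower, 0.00138). Of 9 genes of heme synthesis and breakdown, 1 was higher, the heme oxygenase Hmox1 (3.65-fold), and 3 were lower at 30 µg/kg, a total close to the background of 37.4% for both directions. Of 5 tested genes that handle epoxides and eicosanoids, 3 were higher and 1 lower, with the microsomal epoxide hydrolase Ephx1 up 2.46-fold (8.1e-06) and the soluble one, Ephx2, 1.69-fold lower (0.00515).

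The growth hormone pathway is known to set sex bias in the liver. Of its 8 listed genes, 6 were called lower and 1 higher at 30 µg/kg, and 4 lower at 10 µg/kg, where 19.4% and 11.2% of all genes were called lower. The receptor Ghr was 2.28-fold lower (adjusted p = 1.99e-05), the transcription factor Stat5b 1.93-fold lower (1.43e-05), the feedback inhibitor Socs2 3.90-fold lower (0.00118) and Cux2, a female-biased repressor, 8.72-fold lower (0.00142) at 30 µg/kg. Whether these genes have a part in the values of the Cyp2 members was not tested.

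Called markers of position in the lobule and of cell type are given for 30 µg/kg and, for some lists, for 10 and 1 µg/kg. At 10 µg/kg 4 of 9 tested hepatocyte markers were lower and none higher. Of 8 periportal genes, 3 were lower and 1 higher at 10 µg/kg. There, 5 of 8 recruited macrophage, 3 of 8 neutrophil and 3 of 8 stellate cell markers were higher and none lower. Of all genes, 11.3% were called higher and 11.2% lower at that dose. Of 9 pericentral genes outside the family, 2 were called higher and none lower at 30 µg/kg, with a median log2 fold change of -0.13 and a background of 18% higher. Cyp1a2, a known target of the dioxin receptor, was 1 of the 2, at 36.3-fold (adjusted p = 5.4e-14). Of 8 periportal genes, 6 were lower and 1 higher (background 19.4% lower), with a median log2 fold change of -1.36. The summed level of the hepatocyte markers was 135400 to 252520 CPM in vehicle, 110480 to 136710 CPM in the 10 µg/kg livers and 66340 to 104680 CPM in those at 30 µg/kg, and 8 of 9 tested were called lower at 30 µg/kg (median log2 fold change -1.25). Among markers of other cells, 5 of 7 tested cholangiocyte markers were higher at 30 µg/kg (130 to 354 CPM summed, against 58 to 85 in vehicle), as were 5 of 8 recruited macrophage markers (188 to 477 CPM against 55.2 to 87.5), all 8 neutrophil markers (51.9 to 122 CPM against 1.20 to 2.76) and 4 of 8 stellate cell markers (392 to 795 CPM against 136 to 202). At 30 µg/kg 4 of 6 B and plasma cell markers and 1 of 6 T and NK cell markers were also called higher. The second 30 µg/kg liver was the highest of its group for 19 of the 20 members called lower at that dose (all but Cyp2b9). It was the lowest of its group in the summed cholangiocyte, recruited macrophage, neutrophil and stellate cell markers. For neutrophil markers the difference from the first liver was small (51.9 against 53.1 CPM), and the third was at 122 CPM. The second liver was the highest of its group in the summed Kupffer cell markers (353 CPM against 224 and 206). The same held for the sinusoidal endothelium markers (371 CPM against 256 and 250.3). Both lists had none called higher and 1 of 8 called lower at 30 µg/kg. In the 1 µg/kg group 7 of 8 Kupffer cell, 7 of 8 recruited macrophage and all 8 neutrophil markers were called higher and 3 of 9 hepatocyte markers lower. Of all genes, 11.1% were called higher and 8.21% lower at this dose. The summed neutrophil markers there were uneven, at 1110, 5.25 and 186 CPM. The summed Kupffer cell markers there were at 1536, 385 and 870.3 CPM, against 246 to 366 CPM in vehicle. The part of cell makeup in the members' values was not tested.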

How the data were processed

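Per the labels' protocols, TRIzol was used to extract RNA from the 27 livers and a TruSeq RNA kit to make the libraries. Per the submitters' processing notes the tools were FastQC 0.11.2, cutadapt 1.4.1, TopHat 1.4.1, SAMtools 0.1.19 and HTSeq 0.6.1 with GRCm38. No source used here states the annotation release or the strand setting, so reads of overlapping genes on opposite strands cannot be told apart. The authors deposited whole-number read counts per gene for each sample: 41388 gene identifiers, of which 40254 have a symbol, and 5 summary lines that were left out of totals (reads with no feature 5.62% to 11.9%, ambiguous 1.79% to 3.49%).

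Genes were filtered with filterByExpr at a minimum count of 10, which left 15121. They were fitted in edgeR 4.0.16 (R 4.3.3) with TMM factors and robust quasi-likelihood tests in a model of all 27 libraries, with each dose set against vehicle, 30 against 10 µg/kg and a trend over dose rank. P-values were adjusted by Benjamini-Hochberg over all tested genes and called under 0.05. Standard errors were derived from the fold change and the F statistic (size over root F). CPM are counts per 1e6 gene counts with TMM factors. DESeq2 1.42.0, RLE and upper-quartile factors, no filter, a replicate block, fits of 2 groups alone, fits without the shallow library and fits without each library in turn were alternatives. The scripts were tested on simulated data. No pair of libraries of the same group agreed within sampling noise. The lowest chi-square per degree of freedom was 6.07, in a pair with the shallow library. Pairs from different groups were not compared.

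The members and all gene lists were chosen with earlier results of these data known. Genes were named by a rule: the top gene per kilobase of each subfamily in vehicle, the members with the largest called changes in each direction at 30 µg/kg, the sex-biased genes and those called at 0.1 µg/kg or below. Others are given by counts, ranges or fold change, except Cyp2j6, which is given by liver outside this rule. Shared windows of 50 bases were counted over GENCODE vM21 transcripts.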

Additional observations from a re-analysis of the deposited data

How the results depend on the processing

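With 1 library left out at a time, the count of called members ranged over 0 to 1 at 0.01 and at 0.1 µg/kg, 1 to 2 at 0.3, 2 to 5 at 1, 9 to 14 at 10 and 19 to 28 at 30 µg/kg, over 1 to 20 for 30 against 10 µg/kg and 15 to 22 for the trend. In fits of the 2 groups alone it was 1 at 0.03, 3 at 1, 7 at 3 µg/kg and 0 for 30 against 10 µg/kg. At 10 µg/kg the fit of the 2 groups alone newly called Cyp2a22, Cyp2c23, Cyp2c37, Cyp2c39, Cyp2c40 and Cyp2c54. It no longer called Cyp2c38. At 0.3 µg/kg the count of called members was 1 without the low-count filter and 1 without the shallow library. With the second library as the only one at 1 µg/kg it was 3, which assumes that this lone sample varies like the other groups. DESeq2 called 14 for 30 against 10 µg/kg. The trend gave 1 over vehicle to 0.1 µg/kg and 6 over 0.3 to 10 µg/kg. The cause of these shifts was not tested, beyond the smaller number of samples in fits that leave some out. With RLE factors the counts at 1, 10 and 30 µg/kg were 6, 15 and 25.

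Cyp2c29 at 30 µg/kg changed sign, from -0.02 to 0.0848 with RLE factors and with DESeq2, 0.0852 with upper-quartile factors, 0.0127 without the shallow library and 0.0125 in the fit of the 2 groups alone, and over -0.81 to 0.33 with 1 library left out. Over the named members' fold changes at 30 µg/kg, 409 values under alternatives kept their direction and side of the threshold, 11 passed it newly, 13 no longer passed it and 8 changed sign, all of the last in Cyp2c29.

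Replicate numbers did not pair the livers: of 108 same-numbered pairs 20 had a correlation of deviations over 0.1 (range -0.33 to 0.34, median 0.02), and 10 of 27 libraries were closest to their own number. With the replicate number as a block, 16 members were called at 10 µg/kg, 25 at 30 µg/kg, 10 for 30 against 10 µg/kg and 19 in the trend. Low counts limit Cyp2g1, Cyp2s1, Cyp2d12 and the 14 untested members, and the shallow library limits all values at 0.3 µg/kg. Shared sequence limits the 13 tested members with over 20% of their 50-base windows in other genes.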

Other observations

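Of 8 Cyp2 pseudogenes outside the members, 3 had counts enough to test, and 5 others had 0 counts. Cyp2d37-ps, near the Cyp2d genes, had a mean of 49.9 ± 10.4 CPM in vehicle and 14.9 ± 9.44 CPM at 30 µg/kg, 3.35-fold lower (adjusted p = 8.60e-05 by edgeR). Cyp2d41-ps had 2.47 ± 0.807 CPM at 10 µg/kg against 0.643 ± 0.373 CPM in vehicle (3.91-fold, adjusted p = 0.00157 by edgeR) and was not called at 30 µg/kg (2.03-fold, 0.0708). Cyp2c53-ps was not called at any dose and was uneven within groups: the vehicle livers were at 11.6, 17.5 and 0.0803 CPM, and the 3 livers at 0.1 µg/kg were all at 0 CPM.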
